A study of Mus musculus with 72 samples.

Results

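LAM-HTGTS, a translocation sequencing assay built on linear amplification, reads from a primer beside a Cas9 cut, the bait break, across the joint into whatever DNA end, the prey, the bait was rejoined to. The joins described here are short deletions at the bait break itself. In each of them the bait end was rejoined to its own chromosome, in the original orientation, at a prey base lying between 10 bases before the cut and 199 bases past it. Of 593366 junctions in 60 libraries, 71090 (11.98%) were chosen by this rule, with 46 to 4477 per library (median 929). The bait on chromosome 6 gave 29281 of them in 23 libraries, the bait on chromosome 8 gave 11656 in 12, the bait on chromosome 12 gave 15786 in 10, and the bait on chromosome 14 gave 14367 in 15.

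The Xrcc4/p53-deficient cells (labelled NestinCre+Xrcc4-/-p53-/-) were neural progenitor cells derived from embryonic stem cells of 1 line, Nxp010, so that these libraries carry the loss of both genes and cannot separate them. The wild-type cells were primary neural stem and progenitor cells of C57BL/6J mice. Aphidicolin, a DNA polymerase inhibitor that slows replication forks, was given at 0.5 µM for 72 hours and then at 0.25 µM for 24 hours. ART558, an inhibitor of DNA polymerase theta, was given at 5 µM for 72 hours and then at 2.5 µM for 24 hours. Deficient cells received the solvent DMSO, ART558, aphidicolin or aphidicolin plus ART558 with the baits on chromosomes 6, 8 and 12 (the theta collection in the labels), and DMSO or aphidicolin with the bait on chromosome 14. Wild-type cells received aphidicolin with or without ART558, with the baits on chromosomes 6 and 14, and no wild-type library without aphidicolin was analysed. A further set of 7 DMSO libraries of the deficient cells with the chromosome 6 bait lay outside the theta collection (parental set). The labels do not say whether replicates came from separate cultures. The paper's reporting summary calls the repeats technical for the deficient cells and biological for the wild-type cells. Its figure legends speak of independent biological replicates for both. The p-values here measure the spread between libraries, which may be technical.

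Xrcc4 is the partner of DNA ligase IV in classical non-homologous end joining, which rejoins broken ends with little or no loss of sequence. Without it, ends are trimmed and joined by other routes. Polymerase theta-mediated end joining is one of these: the polymerase anneals short stretches shared by the 2 ends (micro-homology), fills in from them, and can copy nearby sequence into the joint when an annealed end comes apart and anneals again. Such copied insertions can lie in the same direction as their template or be inverted. A direct join has neither shared nor inserted bases.

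The sequences cut are shown first, since the deletions below lie around them, many reaching past the bases shown. They are given in the direction of the sequencing read, with 30 bases on each side of the cut and the 20 bases matched by the guide in capitals, from the GRCm38 reference that the deposited coordinates use. The chromosome 6 cut (chr6:70950079-70950138, minus strand) lies between genes, 6.42 kb from Foxi3, the nearest coding gene. The chromosome 8 cut (chr8:59477674-59477733, plus strand) lies between genes, 563 kb from BC030500. The chromosome 12 cut (chr12:12994025-12994084, plus strand) is exonic, within the lincRNA gene Gm35208, 52.1 kb from Mycn. The chromosome 14 cut (chr14:83268817-83268876, plus strand) lies between genes, 1175 kb from Pcdh17.
chr6 cut: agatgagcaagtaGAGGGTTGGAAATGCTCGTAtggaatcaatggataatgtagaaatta
chr8 cut: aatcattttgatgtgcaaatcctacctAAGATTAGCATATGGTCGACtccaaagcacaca
chr12 cut: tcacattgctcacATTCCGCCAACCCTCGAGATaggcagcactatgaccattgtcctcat
chr14 cut: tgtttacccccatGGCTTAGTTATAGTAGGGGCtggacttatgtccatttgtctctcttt

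The deletions were spread over the whole window and most were shorter than 100 bases on the prey side. This distance chose the joins, so it is described here and not tested. In the deficient cells given DMSO, the median distance of the prey start past the cut was 33.5 ± 0.71 bases at chromosome 6 (SD, n = 2), 50 ± 2.0 at chromosome 8 (n = 3), 59.5 ± 9.19 at chromosome 12 (n = 2) and 34.8 ± 11.95 at chromosome 14 (n = 4). Bases were lost on the bait side too: counting both sides and the shared bases, the median net deletion in these groups was 57, 76, 92 and 100 bases in the same order. Very few of the recovered joins kept almost everything, with 3.08% of all members under 10 bases net, among them the 2.11% that gained bases net through an insertion. Rejoined ends that the assay did not report as junctions are not counted, so this share is no rate of exact repair. The window has no natural edge at its far end, where 1296 members lay in the last 10 bases inside it and 1194 junctions in the first 10 bases beyond it. At the near end 371 members lay in the 10 bases before the cut and 113 junctions in the 10 bases before those.

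Under ART558 the deficient cells had few deletions reaching far past the cut. Joins starting 100 to 199 bases past it made up 25.5% ± 0.99 of members with DMSO and 7.42% ± 1.04 with ART558 at chromosome 6 (SD, n = 2 and 3). The shares were 30.8% ± 0.39 and 5.48% ± 0.50 at chromosome 8 (n = 3 and 2), and 34.4% ± 1.33 and 8.11% ± 0.08 at chromosome 12 (n = 2 and 3). With aphidicolin alone this class lay between the other groups at chromosome 6, at 16.4% in the only library (exact 95% binomial interval 14.1% to 18.9%, counting error only), and made up 26.6% ± 0.68 at chromosome 8 and 27.2% ± 0.35 at chromosome 12. With aphidicolin plus ART558 it made up 3.31% ± 0.70, 5.88% ± 2.38 and 6.23% ± 1.52 at chromosomes 6, 8 and 12 (n = 3 each). The groups with and without ART558 did not overlap at any of these baits.

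The wild-type cells had short deletions with and without the inhibitor. At chromosome 14 the 100 to 199 base class made up 15.2% ± 1.44 of their members with aphidicolin and 11.2% ± 0.64 with aphidicolin plus ART558 (SD, n = 4 each), against 26.0% ± 0.92 in the deficient cells with aphidicolin (n = 3). At chromosome 6 it made up 4.33% ± 5.26 with aphidicolin (n = 3) and 8.34% ± 2.63 with both drugs (n = 4), with 72 to 232 members per library, so that single reads weigh heavily there. All wild-type libraries were sequenced in 1 run that held no library of the deficient cells. The wild-type cells were also primary cells of C57BL/6J mice, while the deficient cells came from 1 embryonic stem cell line and were cultured differently. Genotype, run, cell source and culture thus cannot be told apart in any comparison of the genotypes.

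**Figure D1:**
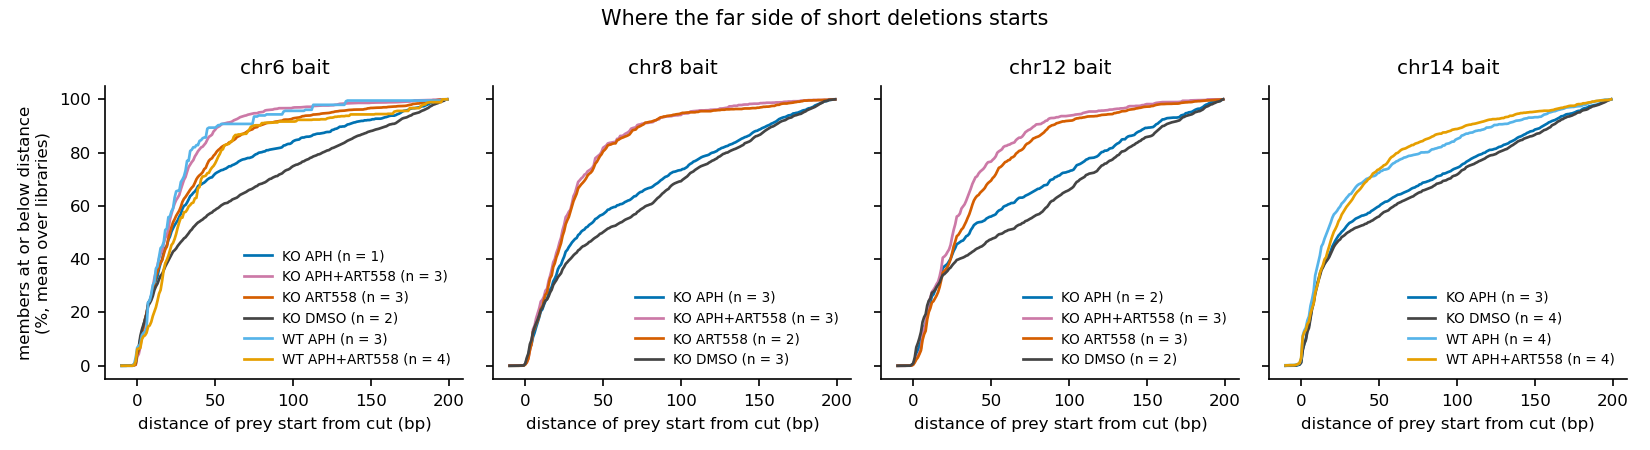
Cumulative share of members (y axis, percent, mean over libraries) against the distance of the prey start from the cut (x axis, bases), in 1 panel per bait, with KO for the Xrcc4/p53-deficient and WT for the wild-type cells. The ART558 and APH+ART558 curves of the deficient cells leave a mean of 3.31% to 8.11% of members 100 bases or more past the cut at chromosomes 6, 8 and 12, and the DMSO curves there leave 25.5% to 34.4%.

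The joints themselves were not used in choosing the members, so they were tested. For each library the share joined directly and the shares with 1, 2 to 4 and 5 to 10 bases of micro-homology were taken over the members with 0 to 10 shared bases, and the share with inserted bases over all members. Groups were compared by a two-sided exact permutation of libraries within each bait, with Benjamini-Hochberg adjustment over 170 tests, and a difference is given in percentage points as the mean over baits. Of the 71090 members, 27337 carried inserted bases, of at most 30. A single shared base was the commonest overlap in the deficient cells given DMSO, at 18.7% ± 2.06 of members over 18 libraries, followed by 2 shared bases at 16.5% ± 2.50 and direct joins at 13.7% ± 2.16.

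With ART558 alone, larger shares of the joins of the deficient cells had long micro-homology or insertions. The share with 5 to 10 shared bases at chromosome 6 was 6.91% and 6.62% in the DMSO libraries and 11.6%, 10.98% and 9.97% in the ART558 libraries. At chromosome 8 it was 4.15%, 4.05% and 4.09% with DMSO and 8.10% and 7.73% with ART558. At chromosome 12 it was 2.77% and 2.26% with DMSO and 5.68%, 5.35% and 6.22% with ART558. The ART558 libraries lay above the DMSO libraries at each of these baits without overlap. The mean rose from 4.46% to 8.17%, by 3.71 points (exact permutation p = 0.001, the smallest this design allows, adjusted p = 0.0082, n = 8 and 7 libraries). The mean length of shared sequence rose by 0.298 bases, from 1.63 to 1.93 (exact permutation p = 0.001, adjusted p = 0.0082).

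Insertions rose with ART558 at chromosomes 8 and 12 without overlap, and overlapped at chromosome 6. At chromosome 6 they were found in 49.0% and 46.2% of members with DMSO and in 56.2%, 46.3% and 60.5% with ART558. At chromosome 8 the shares were 37.6%, 37.6% and 37.9% with DMSO against 46.4% and 48.0%, and at chromosome 12 they were 31.5% and 35.7% against 47.9%, 44.2% and 44.1%. The mean rose by 9.36 points, from 39.6% to 49.0% (exact permutation p = 0.002, adjusted p = 0.0110, n = 8 and 7). The 7 DMSO libraries of the parental set at chromosome 6, sequenced in other runs, ranged from 29.9% to 40.9%, below both DMSO libraries of the theta collection, and with them added the rise was 12.4 points (exact permutation p = 9.1e-05).

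Among the other joints, joins with 1 shared base fell by 3.12 points (exact permutation p = 0.006, adjusted p = 0.0204), but overlapped at chromosome 6, where the groups differed by -0.59 points. Within shared runs the difference was -1.57 points and did not pass (exact permutation p = 0.12). Direct joins were 19.8% with ART558 and 22.8% with DMSO, a difference of -2.98 points that did not pass (exact permutation p = 0.056, adjusted p = 0.108), and joins with 2 to 4 shared bases differed by 2.39 points (exact permutation p = 0.11). More bases were also missing on the bait side, and whether more were trimmed or fewer filled in was not tested. Members with ART558 lost a mean of 30.3 bases on the bait side against 23.8 with DMSO, a rise of 6.43 bases that held at each of the 3 baits without overlap (exact permutation p = 0.001, adjusted p = 0.0082). At chromosome 8 no ART558 library shared a sequencing run with a DMSO library. Within shared runs, at chromosomes 6 and 12, long micro-homology rose by 3.66 points (exact permutation p = 0.01, as low as this design can go) and insertions by 9.30 points (exact permutation p = 0.04).

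**Figure D2:**
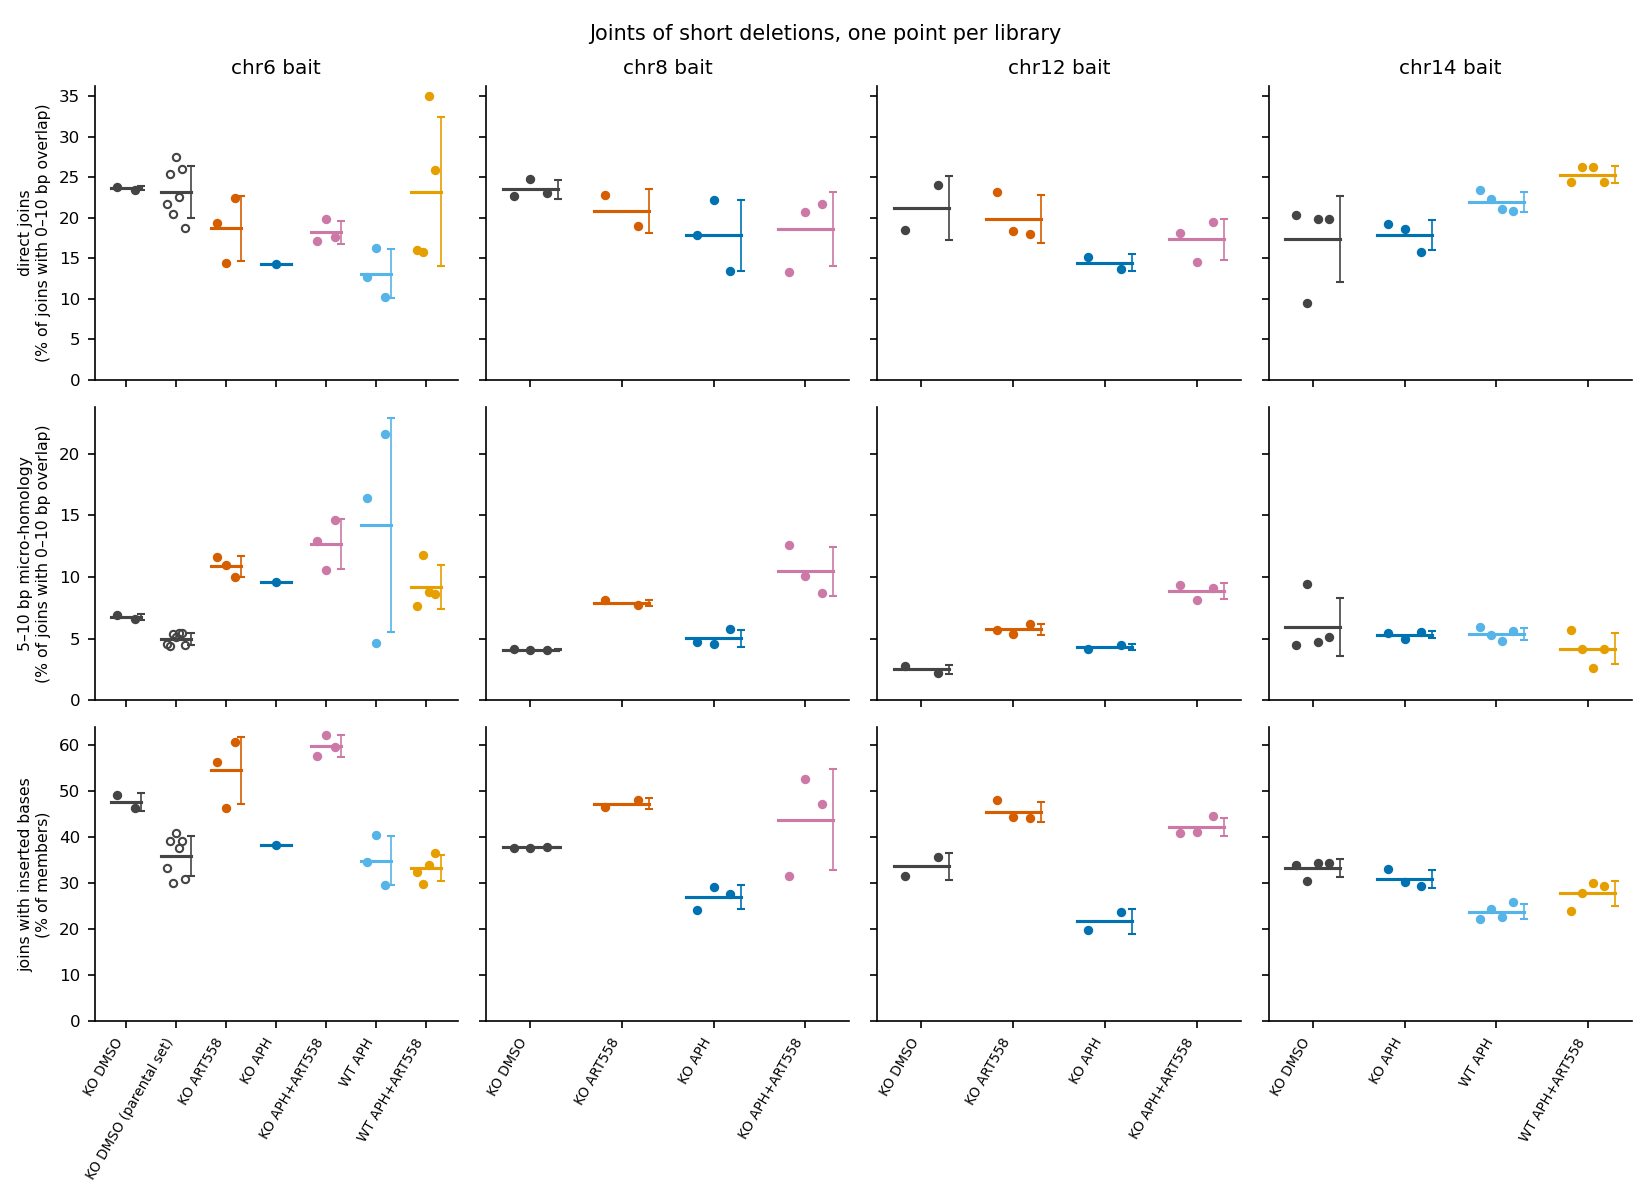
Share of direct joins, of joins with 5 to 10 bases of micro-homology (both in percent of joins with 0 to 10 shared bases) and of joins with inserted bases (percent of members) for each library, by bait and group. Points are libraries, lines are group means with SD bars beside them, and open circles are the chromosome 6 DMSO libraries of the parental set. The ART558 points lie above the DMSO points for long micro-homology at chromosomes 6, 8 and 12.

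**Figure D3:**
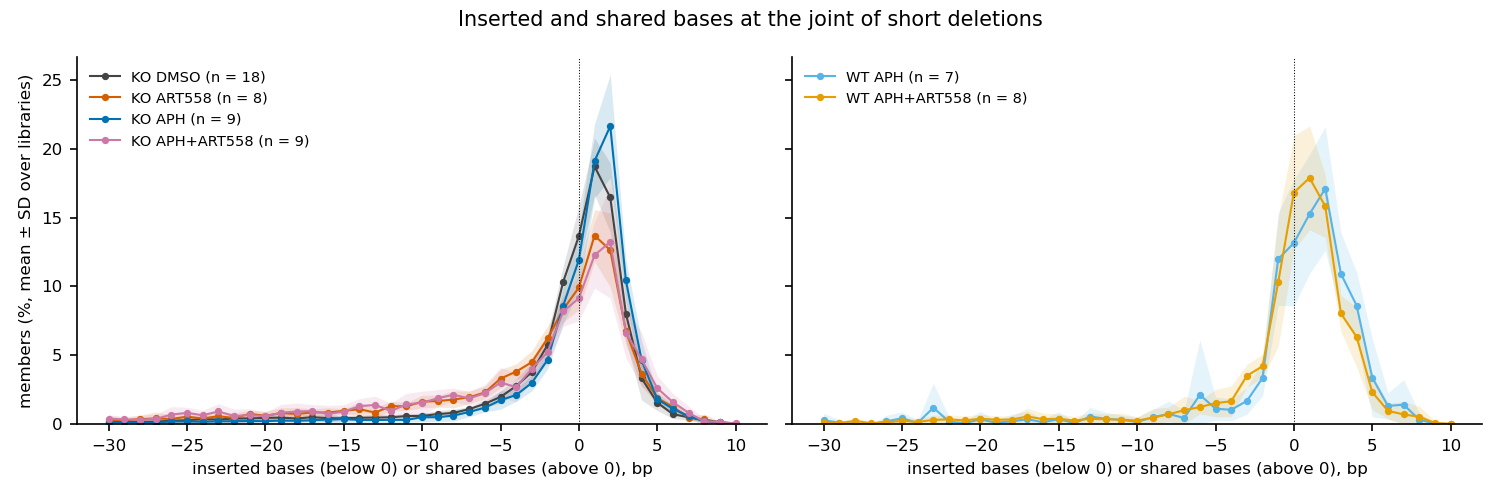
Mean share of members (y axis, percent) by the overlap of bait and prey in bases (x axis), where negative values are inserted bases and positive values are micro-homology, for each genotype and drug. The deficient cells given DMSO peak at 1 shared base, at 18.7% of members over 18 libraries, against 13.7% with ART558 over 8. The DMSO mean includes the chromosome 14 bait and the parental set, which the ART558 mean lacks.

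Aphidicolin alone went with fewer insertions in the deficient cells. Insertions with aphidicolin were found in 38.2% of members in the only chromosome 6 library (exact 95% binomial interval 35.1% to 41.4%), in 24.1%, 29.2% and 27.5% at chromosome 8, in 19.7% and 23.6% at chromosome 12 and in 33.1%, 30.1% and 29.4% at chromosome 14. In the theta collection the DMSO values were 46.2% or more, 37.6% or more and 31.5% or more at chromosomes 6, 8 and 12, above every aphidicolin library of the same bait. The chromosome 6 DMSO libraries of the parental set, at 29.9% to 40.9%, overlapped the aphidicolin library. At chromosome 14 they were 33.9%, 30.4%, 34.2% and 34.4%, and the groups overlapped through the second of these libraries. Insertions fell by 8.62 points, from 38.0% to 29.4% (exact permutation p = 0.00016, adjusted p = 0.0082, n = 9 and 11). Insertions of 10 to 30 bases fell by 2.29 points (exact permutation p = 0.00040), but the difference was -0.472 points for joins at least 10 bases past the cut and -0.579 points with the parental DMSO set added, neither of which passed (exact permutation p = 0.297 and p = 0.670). Direct joins fell by 5.33 points (exact permutation p = 0.0097, adjusted p = 0.0253), a fall that was 4.00 points and did not pass without the chromosome 6 aphidicolin library (exact permutation p = 0.0579). Taken as a share of all members, insertions included, direct joins differed by -1.78 points and did not pass either (exact permutation p = 0.0894). Joins with 2 to 4 shared bases rose by 6.996 points (exact permutation p = 0.0035, adjusted p = 0.0148). Joins with 5 to 10 shared bases differed by 1.25 points (exact permutation p = 0.0520). They passed with a window of 1000 bases (1.54 points, exact permutation p = 0.0202), with insertions counted in the share (1.23 points, exact permutation p = 0.0174) and with the parental DMSO set added (1.59 points, exact permutation p = 0.0120). This difference was 1.54 points without chromosome 14 DMSO replicate 2, a library of 427 members that stood apart from the other 3 (exact permutation p = 0.00028), and 0.714 points without the chromosome 6 aphidicolin library (exact permutation p = 0.229).

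When both drugs were given, the deficient cells again had more insertions than with aphidicolin alone, and more long micro-homology among the joins without them. Insertions at chromosome 6 were found in 57.4%, 62.1% and 59.5% of members with both drugs, against 38.2% with aphidicolin. The values with both drugs were 31.5%, 52.6% and 47.0% at chromosome 8 and 40.8%, 41.1% and 44.4% at chromosome 12, above every aphidicolin library of the same bait. The rise was 19.6 points, from 28.9% to 48.5% (exact permutation p = 0.00125, the smallest possible, adjusted p = 0.0082, n = 9 and 6). Joins with 5 to 10 shared bases rose by 4.34 points, without overlap at any of the 3 baits (exact permutation p = 0.00125, adjusted p = 0.0082). As a share that counted insertions too, they differed by 1.08 points, which did not pass (exact permutation p = 0.131). Bait-side loss rose by 4.18 bases (exact permutation p = 0.01, and p = 0.05 without the chromosome 6 aphidicolin library). By bait the difference was 2.28 bases at chromosome 6, 10.24 at chromosome 8 and 0.019 at chromosome 12, and over joins under 100 bases it was 1.66 bases and did not pass (exact permutation p = 0.264). Direct joins differed by 2.51 points (exact permutation p = 0.119). Joins with 2 to 4 shared bases differed by -4.57 points, which did not pass (exact permutation p = 0.0875), but did with insertions counted in the share (-12.2 points, exact permutation p = 0.0025) and with a window of 1000 bases (-9.23 points, exact permutation p = 0.0025). At chromosomes 8 and 12 no library with both drugs shared a run with an aphidicolin library, and the chromosome 6 aphidicolin group is a single library.

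Adding aphidicolin to ART558 went with more long micro-homology. Its share rose by 2.50 points over ART558 alone (exact permutation p = 0.00275, adjusted p = 0.0146, n = 9 and 8), a comparison that shares its libraries with those above. Within shared runs it was 3.26 points and did not pass (exact permutation p = 0.05, n = 4 and 5). Insertions differed by -0.50 points (exact permutation p = 0.878) and direct joins by -1.77 points (exact permutation p = 0.28). The rise in long micro-homology reversed where chromosome 8 ART558 replicate 3 was admitted, a library of 46 members in which 40.6% of joins shared 5 to 10 bases: without a minimum of members the difference was -1.14 points, and with the window widened to 1000 bases, which also admitted it, -1.67 points.

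In the wild-type cells, ART558 under aphidicolin went with more direct joins. Direct joins at chromosome 14 were 23.4%, 22.3%, 21.1% and 20.8% of joins with aphidicolin and 24.4%, 26.2%, 26.3% and 24.4% with both drugs, without overlap. At chromosome 6 they were 12.7%, 16.3% and 10.2% with aphidicolin and 16.0%, 15.7%, 35.0% and 25.9% with both drugs, and overlapped. Direct joins rose by 6.74 points (exact permutation p = 0.0151, adjusted p = 0.0350, n = 8 and 7), and joins with 2 to 4 shared bases fell by 7.14 points (exact permutation p = 0.0131, adjusted p = 0.0322). The rise in direct joins did not pass when each of the 3 chromosome 6 aphidicolin libraries was left out in turn (6.03 to 7.54 points, exact permutation p = 0.0581 to 0.0686), nor with each distinct join counted once (4.28 points, exact permutation p = 0.0895). The fall in joins with 2 to 4 shared bases did not pass without chromosome 6 aphidicolin replicate 3 (-4.69 points, exact permutation p = 0.06) or with a window of 1000 bases (-5.32 points, exact permutation p = 0.109). Nor did it pass with same-numbered replicates paired (-7.55 points, exact sign-flip permutation p = 0.0625). Insertions differed by 1.17 points (exact permutation p = 0.531), and the sign turned without that same replicate (-0.129 points). Long insertions and direct copies in these cells are given with the inserted sequences. Long micro-homology differed by -3.10 points, which did not pass (exact permutation p = 0.204). It passed without chromosome 6 aphidicolin replicate 2 (-5.49 points, exact permutation p = 0.0038), with each distinct join counted once (-3.90 points, exact permutation p = 0.0114) and with a window of 1000 bases (-7.04 points, exact permutation p = 0.0012), and was -1.25 points without replicate 3.

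Comparing the genotypes directly, no difference in direct joins, long micro-homology or insertions passed adjustment. With aphidicolin, insertions were 5.27 points higher in the deficient cells, over chromosomes 6 and 14, which did not pass (exact permutation p = 0.0786, n = 4 and 7), and direct joins differed by -1.40 points (exact permutation p = 0.471). At chromosome 14, which is all that is left without the single chromosome 6 library of the deficient cells, both separated the genotypes. Insertions there were 7.13 points higher and direct joins 4.05 points lower in the deficient cells (exact permutation p = 0.0286 each, the smallest possible with 3 and 4 libraries). Insertions also passed without wild-type chromosome 6 replicate 2 (6.64 points, exact permutation p = 0.0190). With both drugs at chromosome 6, insertions were 57.4% to 62.1% in 3 libraries of the deficient cells and 29.8% to 36.5% in 4 wild-type libraries. The groups stood apart by 26.5 points, at an exact permutation p of 0.0286, as low as this design can go, which did not pass adjustment (adjusted p = 0.0600). The difference between the genotypes in the effect of ART558 on insertions at this bait was 23.1 points, and it did not pass (exact permutation p = 0.0643). Direct joins differed by -4.99 points with both drugs (exact permutation p = 0.486), with a difference between the ART558 effects of -6.25 points (exact permutation p = 0.379). For long micro-homology the corresponding values were 3.47 points (exact permutation p = 0.0857) and 8.06 points (exact permutation p = 0.5), and with aphidicolin alone it was -2.33 points (exact permutation p = 0.657). This last value was -0.072 points without the chromosome 6 library of the deficient cells and -4.72 points without wild-type chromosome 6 replicate 2, and with each distinct join counted once it was -4.85 points (exact permutation p = 0.0286). The differences between ART558 effects rest on that 1 library for the deficient cells with aphidicolin, which gives no spread of its own, so their p-values take it to vary like the others and no call is drawn from them. For long micro-homology the 8.06 points became 4.37 without wild-type aphidicolin replicate 3, 12.8 without replicate 2 and 17.5 with a window of 1000 bases.

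Long insertions hold enough sequence to ask where it came from. Insertions of 10 to 30 bases were searched for a stretch of at least 10 bases identical to either strand of the 200 bases on each side of the cut. A match in the read direction is called a direct copy and a match to the opposite strand an inverted copy. In the deficient cells given DMSO, 34.0% of 3278 long insertions held an inverted copy and 16.4% a direct copy. The same insertions searched against the regions around the 3 cuts not used in that library gave 0.569% and 0.173%, which is the background of the search. With ART558 the proportions were turned around, with an inverted copy in 5.18% and a direct copy in 30.9% of 1584 long insertions. With aphidicolin alone they were 29.6% and 16.0% of 514, and with both drugs 3.13% and 23.6% of 1214. The pools differ in their libraries. The DMSO pool includes 402 long insertions of chromosome 14 and 1197 of the parental set at chromosome 6, and the aphidicolin pool 179 of chromosome 14. The pools with ART558 hold neither.

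The 4 inverted copies below are each the insertion itself in capitals followed by its template as it stands in the read direction, since they show what was copied and from how far. For each bait the insertion seen in the most libraries of the deficient cells was taken, among those that matched over their whole length. The chromosome 6 insertion was read 10 times in 7 libraries, and its template lies 22 to 6 bases before the cut. At chromosomes 8, 12 and 14 the insertions were read 3 times in 3 libraries, 5 times in 3 and 2 times in 2. Their templates lie 29 to 12, 30 to 18 and 33 to 16 bases before the cut.
chr6 inserted: TTTCCAACCCTCTACTT
chr6 template: aagtagagggttggaaa
chr8 inserted: TTTGCACATCAAAATGAT
chr8 template: atcattttgatgtgcaaa
chr12 inserted: GTGAGCAATGTGA
chr12 template: tcacattgctcac
chr14 inserted: CCATGGGGGTAAACAATC
chr14 template: gattgtttacccccatgg

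The inverted copies drew on sequence close to the break. In the deficient cells given DMSO, 63.4% of their 1115 templates lay on the bait side of the cut, 74.98% lay within 50 bases of it, and the median copied stretch was 15 bases. Direct copies included the chromosome 6 insertion TCAATGGATAATGTAGAAAT, read 7 times in 7 libraries, whose template lies 8 to 27 bases past the cut. The template of a direct copy lay inside the stretch that the deletion removed in 21.2% of 537 cases with DMSO, and in 58.7% of 489 with ART558 and 54.9% of 286 with both drugs. It lay in sequence that the join kept in 59.0%, 9.82% and 8.39% of them, and the whole insertion matched in 46.2%, 23.5% and 18.2%. A direct match inside the removed stretch may be original sequence left in place and need not be a copy, which was not tested. These pooled counts mix libraries of unequal size and are a description.

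Counted per library, inverted copies were fewer and direct copies, with the limit just given, more frequent with ART558 in the deficient cells. Inverted copies made up 4.98% and 4.27% of members with DMSO at chromosome 6, against 0.517%, 0.407% and 0.971% with ART558. At chromosome 8 they made up 2.36%, 3.44% and 2.39% against 1.09% and 1.53%, and at chromosome 12 2.02% and 2.68% against 0.738%, 0.653% and 0.868%. No ART558 library reached the lowest DMSO library of its bait. Inverted copies fell by 2.34 points, from 3.24% to 0.897% (exact permutation p = 0.001, adjusted p = 0.0082), while direct copies rose by 3.20 points, from 1.26% to 4.47%, and long insertions by 5.66 points, from 9.46% to 15.1% (exact permutation p = 0.001 and p = 0.002). Both copy measures separated the groups at all 3 baits, while long insertions overlapped at chromosome 6. Within shared runs the rise in long insertions was 4.84 points, which did not pass (exact permutation p = 0.05).

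Under aphidicolin, too, ART558 went with fewer inverted and more direct copies. With both drugs against aphidicolin, inverted copies fell by 1.02 points (exact permutation p = 0.0075, adjusted p = 0.0214), direct copies rose by 2.92 points (exact permutation p = 0.005) and long insertions rose by 10.3 points (exact permutation p = 0.00125). The fall in inverted copies was 0.81 points without the chromosome 6 aphidicolin library, and did not pass (exact permutation p = 0.055), and the rise in direct copies was 1.82 points without it (exact permutation p = 0.03). The groups overlapped at chromosome 8 for both copy measures. Aphidicolin alone lowered inverted copies by 1.32 points against DMSO (exact permutation p = 0.0014), and aphidicolin plus ART558 differed from ART558 by -0.30 points (exact permutation p = 0.0760). Inverted copies were rare in the wild-type cells, at 0% to 0.860% of members with aphidicolin and 0% to 5.02% with both drugs, where 0 reads among 72 members, the smallest library, still allow up to 4.17%. These groups differed by 0.82 points (exact permutation p = 0.286), and by 0.237 points without chromosome 6 aphidicolin plus ART558 replicate 4, which held the 5.02%. Direct copies in the wild-type cells rose with ART558 by 0.407 points, from 0.514% to 0.921% of members (exact permutation p = 0.0143, adjusted p = 0.0342). At chromosome 14 they were 1.17%, 0.937%, 0.860% and 1.15% with aphidicolin and 1.70%, 1.77%, 1.69% and 1.78% with both drugs, without overlap, and at chromosome 6 they rested on a single read. For joins at least 10 bases past the cut the difference was 0.242 points and did not pass (exact permutation p = 0.257). Long insertions in these cells were 4.37% ± 0.21 and 7.11% ± 1.496 at chromosome 14 (n = 4 each), without overlap, and 7.03% ± 1.40 and 4.52% ± 2.66 at chromosome 6 (n = 3 and 4), and over both baits they differed by 0.118 points (exact permutation p = 0.933). Over joins at least 10 bases past the cut the difference was 1.87 points and passed (exact permutation p = 0.0367). Inverted copies with aphidicolin were 1.48 points more frequent in the deficient than in the wild-type cells (exact permutation p = 0.0143, adjusted p = 0.0342), and 0.893 points higher without the chromosome 6 library of the deficient cells (exact permutation p = 0.0571). This genotype difference in inverted copies was 0.962 points for joins at least 10 bases past the cut and 0.741 points with a window of 1000 bases, neither of which passed (exact permutation p = 0.0786 and p = 0.186).

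**Figure D4:**
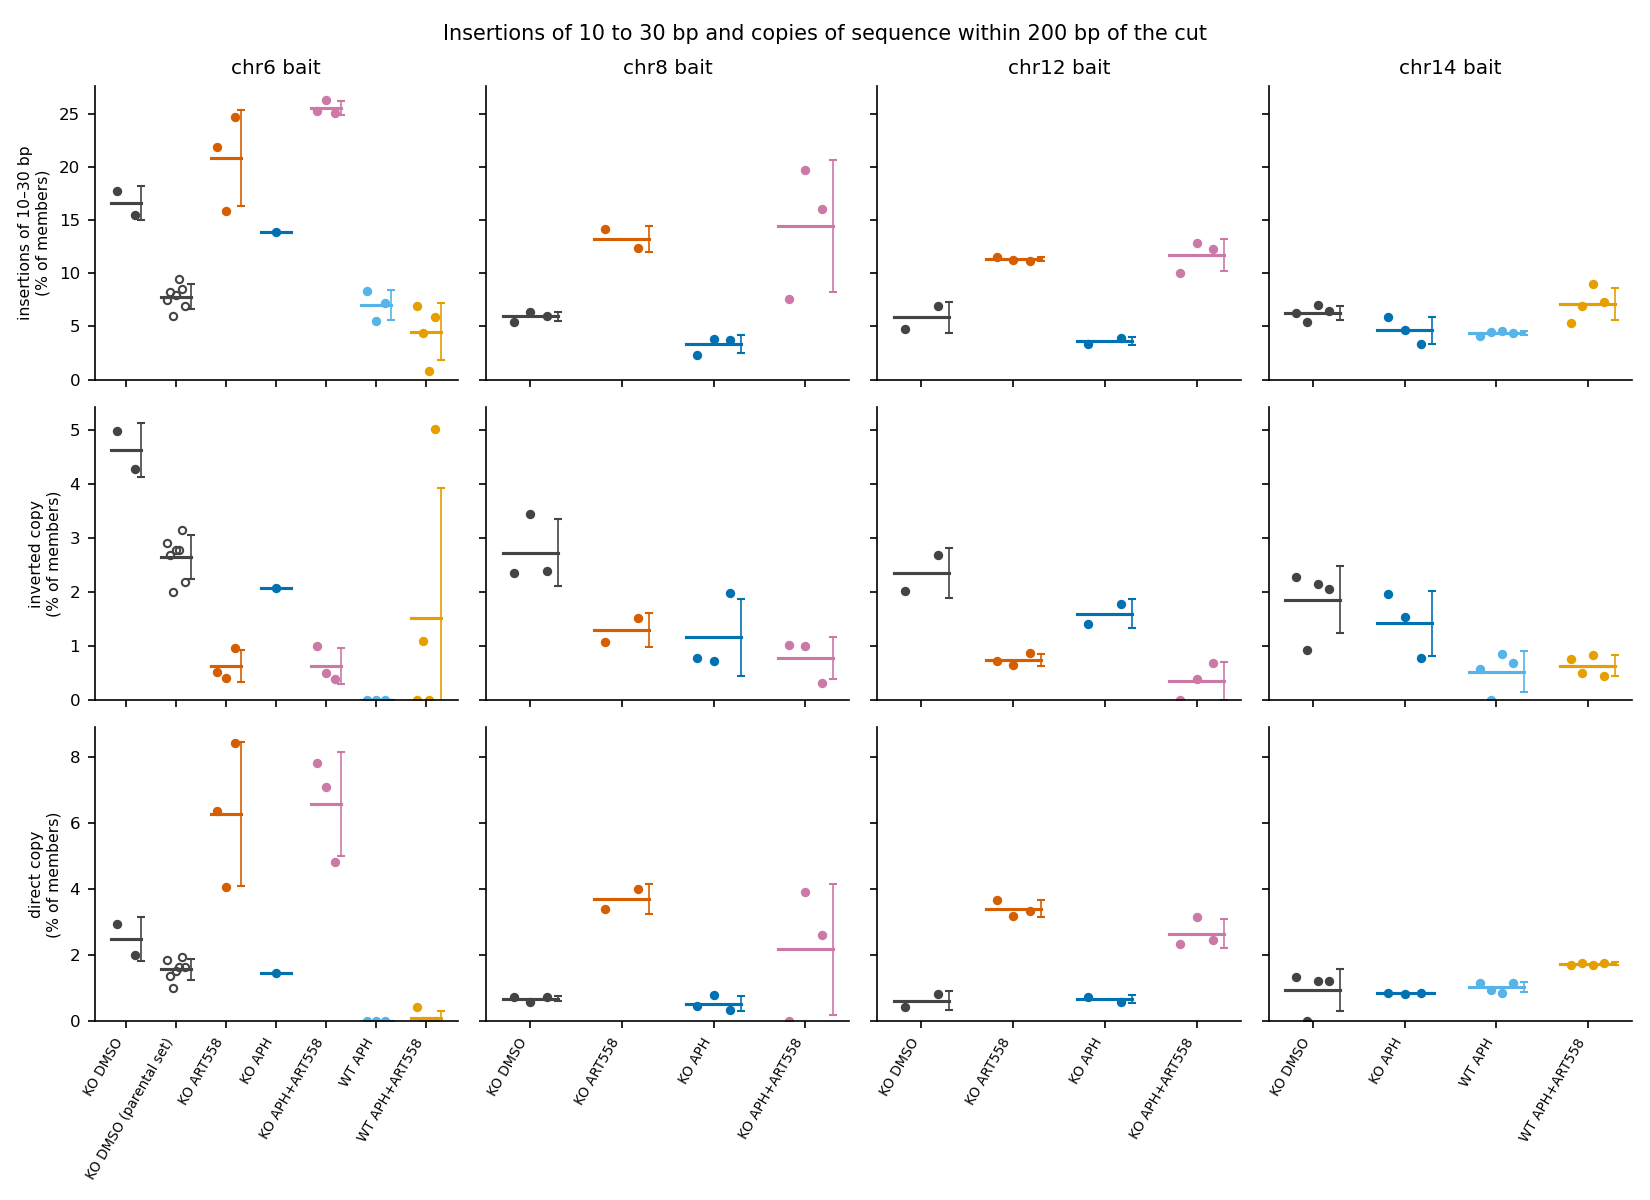
Insertions of 10 to 30 bases, inverted copies and direct copies of sequence within 200 bases of the cut (y axes, percent of members), with 1 point per library, lines for group means and SD bars. Inverted copies lie at 2.02% to 4.98% in the DMSO libraries of the theta collection and at 0.407% to 1.53% with ART558, and direct copies take the opposite order.

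Joints also differed along the window. Over the 18 DMSO libraries of the deficient cells, insertions were found in 53.3% ± 7.42 of members starting up to 9 bases past the cut, in 36.7% ± 5.96 of those 10 to 49 bases past it and in 28.8% ± 4.04 of those 50 to 199 bases past it. The mean micro-homology in the same classes was 1.40 ± 0.297, 1.60 ± 0.250 and 1.83 ± 0.166 bases. In these libraries joins starting nearest the cut on the prey side thus carried insertions most often, and joins starting farther past it shared more bases. Loss on the bait side ran the other way, at a mean of 39.7, 29.6 and 21.0 bases in the same classes. With ART558 insertions and micro-homology kept this order, with insertions in 58.9% ± 7.80, 49.1% ± 6.91 and 40.7% ± 3.85 of members and a mean micro-homology of 1.63 ± 0.284, 1.82 ± 0.167 and 2.35 ± 0.175 bases (n = 8). The mean bait-side loss there was 36.3, 28.5 and 28.8 bases. The wild-type cells had the same order for insertions, at 30.5%, 27.2% and 15.5% of members with aphidicolin and 34.5%, 30.2% and 24.9% with both drugs. Their mean micro-homology showed no such order, at 1.996 ± 0.184 (n = 4), 2.24 ± 0.583 (n = 6) and 1.98 ± 0.030 bases (n = 4) with aphidicolin and 1.80 ± 0.158 (n = 5), 1.74 ± 0.387 (n = 8) and 1.82 ± 0.124 bases (n = 5) with both drugs. These classes use the distance that chose the members and were not tested.

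The short deletions differed from translocations, the junctions with other chromosomes, in the same libraries. Insertions were more frequent in the deletions, by 17.0 points with DMSO (10 of 11 libraries, exact sign-flip permutation p = 0.0039), 32.7 points with ART558 (8 of 8, exact permutation p = 0.0078, the smallest possible), 14.6 points with aphidicolin and 31.2 points with both drugs (9 of 9 each, exact permutation p = 0.0039). The ART558 libraries had insertions in 44.1% to 60.5% of deletions and in 9.58% to 31.6% of translocations. In the wild-type cells the differences were 1.89 points with aphidicolin (5 of 7 libraries higher, exact permutation p = 0.641) and 2.40 points with both drugs (4 of 8, exact permutation p = 0.625).

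Direct joins took the other direction under ART558. They were 20.9% of deletions and 20.4% of translocations with DMSO, a difference of 0.50 points (exact permutation p = 0.931). They were higher in the deletions in 9 of 11 of these libraries, and the difference was 3.74 points without chromosome 14 DMSO replicate 2 (exact permutation p = 0.0566). With ART558 they were 19.7% against 33.6%, lower in the deletions in 8 of 8 libraries (exact permutation p = 0.0078). With aphidicolin they were lower by 5.26 points in 8 of 9 libraries, which did not pass adjustment (exact permutation p = 0.0352, adjusted p = 0.0703). With both drugs they were lower by 14.04 points in 9 of 9 libraries (exact permutation p = 0.0039). In the wild-type cells they were lower with aphidicolin by 11.7 points in 7 of 7 libraries (exact permutation p = 0.0156, adjusted p = 0.0350), and by 7.73 points without chromosome 6 aphidicolin replicate 1 (exact permutation p = 0.0312). With each distinct join counted once the difference was -7.41 points and did not pass (exact permutation p = 0.25). With both drugs the wild-type difference was -5.16 points, lower in 6 of 8 libraries, which did not pass (exact permutation p = 0.125). Long micro-homology was less frequent in deletions than in translocations with DMSO, at 4.97% against 14.5%, in 11 of 11 libraries (exact permutation p = 0.00098), and with aphidicolin by 9.61 points in 9 of 9 (exact permutation p = 0.0039). With ART558 the difference was -2.84 points, and with both drugs -1.52 points, which did not pass (exact permutation p = 0.0625 and p = 0.188). Both passed with each distinct join counted once (-3.54 and -3.42 points, exact permutation p = 0.0312 and p = 0.0117) and with insertions counted in the share (-4.88 and -4.37 points, exact permutation p = 0.0078 and p = 0.0039). The wild-type differences in long micro-homology were -6.33 points with aphidicolin, lower in 5 of 7 libraries (exact permutation p = 0.219), and -7.40 points with both drugs, lower in 7 of 8, which did not pass adjustment (exact permutation p = 0.0312, adjusted p = 0.0632). Inverted copies were 2.25 points more frequent in the deletions with DMSO, in 11 of 11 libraries (exact permutation p = 0.00098). With ART558, aphidicolin and both drugs they were 0.541, 1.17 and 0.427 points more frequent (exact permutation p = 0.0078, 0.0039 and 0.0078), the last of which was lost when the whole insertion had to match, a setting chosen after seeing the data (exact permutation p = 0.996). Wild-type differences in inverted copies were 0.263 points with aphidicolin (exact permutation p = 0.25) and 0.984 points with both drugs, which did not pass adjustment (exact permutation p = 0.0312, adjusted p = 0.0632) and was 0.417 points without chromosome 6 replicate 4.

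The effect of ART558 itself differed between the 2 kinds of join, which was tested on the difference within each library. Against DMSO, the change in deletions minus the change in translocations was -16.3 points for direct joins, 6.72 points for long micro-homology, 9.83 points for insertions and -2.20 points for inverted copies (exact permutation p = 0.001 and adjusted p = 0.0082 for each, n = 8 and 7). Under aphidicolin the corresponding values were -5.82, 6.56, 16.3 and -0.88 points (exact permutation p = 0.00125, 0.00125, 0.00375 and 0.00875), the last of which was -0.72 points and did not pass without the chromosome 6 aphidicolin library (exact permutation p = 0.06). It also did not pass for joins at least 10 bases past the cut (-0.502 points, exact permutation p = 0.104) or with a window of 1000 bases (-0.423 points, exact permutation p = 0.095). In the wild-type cells the values were 8.07 points for direct joins, -2.52 points for long micro-homology, 1.26 points for insertions and 0.76 points for inverted copies, none of which passed (exact permutation p = 0.105, 0.346, 0.779 and 0.371).

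**Figure D5:**
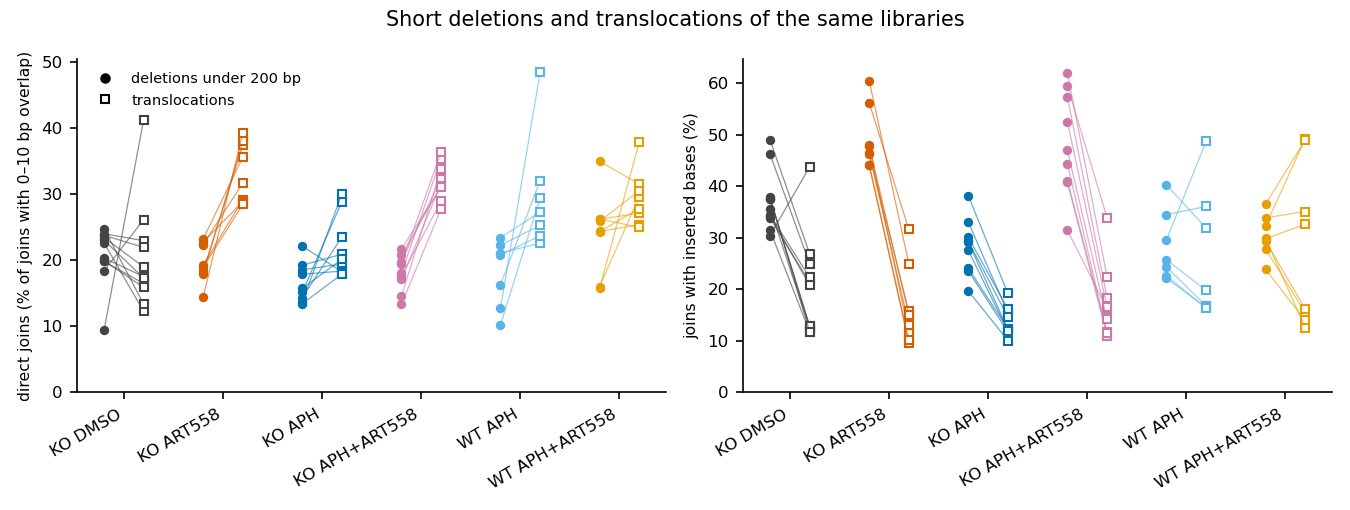
Direct joins (left, percent of joins with 0 to 10 shared bases) and joins with inserted bases (right, percent) in deletions under 200 bases (filled points) and in translocations (open squares) of the same library, joined by a line. In the ART558 group deletions hold 44.1% to 60.5% insertions and translocations 9.58% to 31.6%.

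The single joins seen most often were joins at micro-homologies close to the cut. For each bait the 3 joins with the highest mean share of members were taken, and each is a fixed pair of bait end and prey start. All 12 shared 2 to 7 bases at the joint. The join with the highest mean share at each bait is shown as the rejoined sequence with the shared bases in capitals.
chr6 join: agtagagggtTGGAAtcaatggata
chr8 join: tggtaggaATCATTTctgtatgt
chr12 join: tggaatctcaCATTGtcctcattta
chr14 join: ccatggcttagTTATgtccatttgtc

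None of these joins was common, and their shares are a description. The chromosome 6 join lost 14 bases net and was found in all 23 libraries, at 0.139% to 2.40% of members. Its mean was 0.255% ± 0.031 with DMSO (SD, n = 2) and 0.353% ± 0.115 with ART558 (n = 3) in the deficient cells, and 0.415% in their only aphidicolin library. Wild-type cells had it at 1.66% ± 0.65 with aphidicolin (n = 3) and 0.782% ± 0.375 with both drugs (n = 4), from 5 and 6 reads. Its lead at this bait was narrow, at a mean of 0.576% against 0.569% for the next join, and turned on single libraries of both genotypes. Without wild-type aphidicolin replicate 1 or replicate 3 its mean was 0.548% or 0.493%, below the 0.595% of the next join. Without the aphidicolin library of the deficient cells it was 0.583%, below 0.586%. The next join itself was 0.343% without wild-type aphidicolin replicate 2. The chromosome 8 join, with 7 shared bases and a net loss of 73, made up 0.0563%, 0.0538% and 0.0519% of members with DMSO and 0.271% and 0.277% with ART558. With both drugs it made up 2.03%, 0.504% and 0.656%, the first from a library of 197 members. Without that library its mean over the bait was 0.246% in place of 0.408%, below the 0.291% and 0.273% of the next 2 joins there, and it was read 25 times against their 30 and 29. The chromosome 12 join, with 5 shared bases and a net loss of 45, made up 0.126% and 0.134% with DMSO, 0.201%, 0.290% and 0.401% with ART558, and 0.641%, 0.791% and 0.584% with both drugs. Without the second of these last libraries its mean over the bait was 0.345%, below the 0.382% of the next join, which was read 45 times against 44. The chromosome 14 join, with 4 shared bases and a net loss of 18, was read in all 15 libraries, at a mean of 0.292% ± 0.276 in the deficient cells with DMSO (n = 4), or 0.155% without replicate 2, and 0.420% ± 0.124 with aphidicolin (n = 3). Wild-type cells had it at 1.03% ± 0.54 with aphidicolin and 0.628% ± 0.141 with both drugs (n = 4 each).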

How the data were processed

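LAM-HTGTS libraries were made from genomic DNA after nucleofection of a Cas9 and guide plasmid. Per the labels and the methods, the authors aligned reads to mm10 with Bowtie2 in the HTGTS pipeline (TranslocProcess, TranslocWrapper); the versions are not given in the sources used here. The deposited tables list 1 junction per row with coordinates, strands and read positions, in units other than counts or normalised values, and no normalisation had been applied. Junctions per library ranged from 133 to 37027, and precision is limited by the members per library. Each cut was placed by matching the guide to GRCm38. Shared bases were taken as the bait end minus the prey start on the read plus 1, with inserted bases where this was negative. The reference and the reads matched in 92.7% of bait ends and 93.4% of prey starts over 10 bases.

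A library needed at least 50 members, which left out deficient chromosome 8 ART558 replicate 3 (46 members). Incomplete last lines (1) were left out. Tests permuted libraries within baits exactly, two-sided, over 17 comparisons or parts and 10 measures. Long insertions, inverted copies and direct copies were added after seeing the data. The members and lists were chosen with earlier results of these data known. Named joins were the 3 with the highest mean share per bait, averaged over libraries. The libraries came from 11 sequencing runs. One label field spells ART558 as ATR558, and the titles were followed. Repeated reads of a join were counted as deposited. Intervals, and the limit of 3 counts that a value of 0 allows, cover counting error only. The statistics were tested on simulated data. Python 3.11.15, numpy 2.4.6, scipy 1.17.1, pandas 2.3.3, pysam 0.24.0 and matplotlib 3.10.9 were used.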

Additional observations from a re-analysis of the deposited data

Results flagged for a closer look

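In groups of 4 to 10 libraries, the lowest or highest library was compared with the rest by its gap over the group's range (Dixon's criterion), which flags about 1 in 20 groups by chance, and 8 of 60 group measures were flagged. Of these, 7 came from the same library, chromosome 14 DMSO replicate 2 of the deficient cells, which had 1140 junctions and 427 members. Its direct joins were 9.43% against 19.9% to 20.4% in the other 3 libraries. Its joins with 5 to 10 shared bases were 9.43% against 4.53% to 5.15%, and its mean micro-homology was 2.39 bases against 1.77 to 1.80. Its insertions were 30.4% against 33.9% to 34.4%, its inverted copies 0.937% against 2.07% to 2.29%, and its direct copies 0%, which allows up to 0.703%, against 1.21% to 1.35%. Its members made up 37.5% of its junctions against 20.5% to 22.4%. The remaining value was the share of direct copies in wild-type chromosome 6 aphidicolin plus ART558 replicate 1, at 0.431%, a single read of 232 members, against 0% in the other 3 libraries, which allows up to 1.37% to 2.48% there.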

How the results depend on the processing

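Apart from leaving out libraries, 664 alternative values were computed for 81 results, of which 557 kept their direction and their side of the threshold, and of 1046 values without 1 library 980 did. Values are in percentage points, and the cause of each change was not tested unless named. For direct joins with ART558 against DMSO in the deficient cells, the difference passed with a window under 100 bases (-4.36), with insertions in the denominator (-3.64), with no minimum of members (-4.61) and with the parental DMSO set (-2.87), and joins with 2 to 4 shared bases reversed with a window under 1000 bases (-0.409) and with insertions in the denominator (-2.81). The aphidicolin effect on direct joins did not pass with insertions in the denominator (-1.78). With both drugs against aphidicolin, direct joins passed with a window under 1000 bases (4.26) and at least 500 members (3.26) and reversed with insertions in the denominator (-1.90). Insertions differed by 21.5 within 1 run, where 1 bait and 1 aphidicolin library could not reach the threshold. With both drugs against ART558, insertions reversed with distinct joins (0.963), from 10 bases (0.125), under 1000 bases (2.39), with no minimum (1.36) and with at least 500 members (0.413), direct joins under 1000 bases (0.903), and long micro-homology under 1000 bases (-1.67) and with no minimum (-1.14). In the wild-type cells, direct joins did not pass with distinct joins (4.28), and insertions passed from 10 bases (4.49). With at least 500 members only 1 aphidicolin library was left, so that direct joins (1.87) could not reach the threshold. Between genotypes with aphidicolin, direct joins passed with distinct joins (-4.19) and reversed from 10 bases (0.312), and insertions reversed with distinct joins (-0.112) and passed under 100 bases (7.73). With both drugs, long micro-homology reversed with distinct joins (-0.567) and with insertions in the denominator (-1.05) and passed under 1000 bases (5.81). The difference between the ART558 effects on direct joins was -8.46 with insertions in the denominator. For insertions it was 21.4 with distinct joins and 22.9 under 1000 bases. These differences rest on 1 aphidicolin library of the deficient cells, so no call is drawn from them. Against translocations, direct joins with DMSO reversed from 10 bases (-0.472), under 1000 bases (-2.79) and with insertions in the denominator (-2.39), with aphidicolin they did not pass under 100 bases (-3.49), in wild-type cells with aphidicolin they did not pass with distinct joins (-7.41), and with both drugs they passed under 1000 bases (-6.17) and with insertions in the denominator (-3.82). Wild-type insertions against translocations with aphidicolin reversed from 10 bases (-2.65). The drug effect on deletions minus translocations in wild-type cells passed for direct joins from 10 bases (10.5) and under 1000 bases (8.82) and reversed for long micro-homology with at least 500 members (0.809, 1 aphidicolin library). In the deficient cells under aphidicolin it was -3.57 for direct joins within 1 run, where 1 bait and 1 aphidicolin library could not reach the threshold.

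Without 1 library at a time, direct joins ranged from -3.92 to -2.05 for ART558 against DMSO, from -6.03 to -4.00 for aphidicolin against DMSO, from 1.77 to 3.38 for both drugs against aphidicolin, from 4.77 to 7.98 for the same in wild-type cells, and from -4.05 to -0.597 between genotypes with aphidicolin. Insertions ranged from -1.98 to 1.54 for both drugs against ART558, from -0.129 to 2.54 for wild-type cells, from 3.97 to 7.13 between genotypes with aphidicolin (long insertions in wild-type cells from -0.279 to 0.733) and from 25.3 to 27.7 with both drugs. Against translocations, direct joins ranged from -0.600 to 3.74 with DMSO and from -6.40 to -3.87 with aphidicolin, and the wild-type drug effect on the difference ranged from 5.02 to 10.2 for direct joins and from -2.50 to 4.38 for insertions.

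Replicate numbers are shared between groups, but same-numbered libraries did not deviate together in every pair (correlations of deviations over 0.1 in 2 of 6 pairs for ART558 against DMSO, in 5 of 7 for the wild-type cells). At chromosome 14 the wild-type pairs ranged from 0.288 to 0.754. With the replicate number as a block, 10 results no longer passed at an unadjusted threshold of 0.05 (exact permutation p = 0.0625 to 0.25). They were joins with 1 shared base for ART558 against DMSO (-3.07), direct joins for aphidicolin against DMSO (-5.16), bait-side loss (4.10 bases), inverted copies (-0.953) and direct copies (3.37) for both drugs against aphidicolin, joins with 2 to 4 shared bases (-7.55) and direct copies (0.425) in wild-type cells, the drug effect on inverted copies in deletions minus translocations under aphidicolin (-0.793), and, between genotypes, inverted copies with aphidicolin (1.51) and insertions with both drugs (27.7), of which the last 2 and the wild-type direct copies could not reach that threshold in this design. Long insertions in wild-type cells turned sign (-0.119). The difference between the ART558 effects of the genotypes allowed no such pairing. Shares from libraries of under 100 members (wild-type chromosome 6) are the least precise.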

Other observations

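Joins to the same stretch of the bait chromosome in the opposite orientation, which the rule leaves out, numbered 8406 in the 60 libraries. In the deficient cells given DMSO there were 14.1 ± 0.71 of them per 100 short deletions at chromosome 6 (SD, n = 2), 15.5 ± 1.21 at chromosome 8 (n = 3) and 20.9 ± 2.37 at chromosome 12 (n = 2). With ART558 there were 1.996 ± 0.340 (n = 3), 0.891 ± 0.083 (n = 2) and 2.85 ± 0.402 (n = 3), so that the groups stood apart at each of these baits. With both drugs there were 2.89 ± 0.769, 4.23 ± 1.15 and 8.04 ± 2.62 (n = 3 each), and with aphidicolin alone 7.79 in the only chromosome 6 library, 11.4 ± 1.39 (n = 3) and 17.1 ± 1.09 (n = 2). Wild-type cells had 6.56 ± 1.69 with aphidicolin and 4.49 ± 0.824 with both drugs at chromosome 14 (n = 4 each). At chromosome 6 they had 4.83 ± 7.19 with aphidicolin (0 to 13.1, n = 3) and 0.354 ± 0.427 with both drugs (n = 4). This ratio was chosen after its values were seen and was not tested.

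Insertion lengths in the deficient cells differed in the same descriptive way. Insertions of 1 base made up 11.2% ± 0.12, 11.3% ± 0.38 and 10.8% ± 0.05 of members with DMSO at chromosomes 6, 8 and 12, and 8.28% ± 0.96, 8.01% ± 1.33 and 8.59% ± 0.98 with ART558. Insertions of 4 to 9 bases made up 10.8% ± 0.28, 9.37% ± 0.19 and 7.42% ± 0.90 with DMSO, and 15.6% ± 1.78, 14.6% ± 1.88 and 14.1% ± 0.08 with ART558. The shortest class was thus smaller, and the longer class larger, in the ART558 libraries at each of the 3 baits.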
